A study of Mus musculus with 4 samples.

Results

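Complement components and their regulators were examined in lymphatic endothelial cells, which line lymphatic vessels, sorted from lungs of newborn mice. The group holds 9 of the 24421 rows of the count table: the activating components C1qa, C4b, C3, Cfb and Cfd, the soluble regulator Serping1, and the membrane regulators Cd55, Cd46 and Cd59a. These 9 genes were chosen with their levels and their difference between the groups already known, so those values are a description here and carry no test. Sorting at postnatal day 0 kept GFP-positive cells that carried CD31 and lacked CD45. All animals carried Prox1-CreER, a tamoxifen-dependent Cre recombinase expressed where Prox1 is active, and Rosa26-mTmG, a reporter that changes from red to green membrane fluorescence after Cre acts. Jun-Ctrl animals were Junf/+, with 1 floxed Jun allele, and Jun-cKO animals were Junf/f, so the controls share the Cre, the reporter and 1 floxed allele. Each group had 2 libraries (n = 2 throughout), and 3 to 5 mice were pooled per group, so a library is not 1 animal. Whether both libraries of 1 group are from different animals is not stated in the sources used here, and the p-values below then measure only the spread between libraries, which may be technical. The timing of tamoxifen is not given in the sources used here.

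Complement is a cascade of plasma and cell-surface proteins that tags particles and cells for removal. C1q starts the classical route, through which C4 and C2 form an enzyme that splits C3. Factor B, cut by factor D, forms the corresponding enzyme of the alternative route, and C5 to C9 then assemble a pore. Host cells are protected by C1 inhibitor in the fluid phase and by CD55, CD46, Crry and CD59 on the membrane. The liver makes most plasma complement, and macrophages, fibroblasts, epithelium and endothelium make part of it locally.

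Total counts were 16037416 and 6483514 in the Jun-Ctrl libraries, replicates 1 and 2, and 15558476 and 6911821 in the Jun-cKO libraries. Levels are given as CPM, counts scaled to library size with TMM factors, at which 1 count was worth from 0.0606 to 0.153 CPM. Jun stood at 452 ± 27.7 CPM (mean ± SD) in Jun-Ctrl and 499 ± 34.8 CPM in Jun-cKO libraries, a log2 fold change of 0.14 (SE 0.12) that was not called (adjusted p = 0.354, edgeR quasi-likelihood test as for each adjusted p of a gene below). Because the targeted gene did not fall, the libraries are called Jun-cKO-labelled, and the label alone gives each difference its direction. The lymphatic markers Lyve1 (6186 ± 304 CPM in Jun-Ctrl), Reln, Mmrn1 and Flt4 were abundant, and Ccl21a alone of the 12 lymphatic markers had 0 counts in every library. Across 12656 tested genes, 41.5% were called at an adjusted p under 0.05 in the edgeR fit, 19.0% as higher and 22.5% as lower under the Jun-cKO label. For 71.3% the groups did not overlap, with 35.4% higher and 35.9% lower. The total of 5251 calls was 2992 without Jun-Ctrl replicate 1. It was 3425 when Jun-Ctrl replicate 2 was left out.

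The promoters of 3 members with reliable counts are shown because Jun is a subunit of AP-1, a factor that binds the palindrome TGANTCA. RefSeq promoter sequences (GRCm38.p6) matched 5 of the 9 members, C3, Cfd, Cd55, Cd46 and Cd59a. C4b, Cfb, Serping1 and C1qa had no entry in the table used. The 250 bases before the start site are printed 5′ to 3′ on the gene's strand, with capitals for matches to the NF-kappaB motif (GGG and CC with any 5 bases between) or the interferon-stimulated motif (GAAA, any 2 bases, GAAA) on either strand. The windows are chr1:130462745-130462994 (minus strand) for Cd55, chr2:104095551-104095800 (plus strand) for Cd59a and chr17:57228137-57228386 (minus strand) for C3.
Cd55: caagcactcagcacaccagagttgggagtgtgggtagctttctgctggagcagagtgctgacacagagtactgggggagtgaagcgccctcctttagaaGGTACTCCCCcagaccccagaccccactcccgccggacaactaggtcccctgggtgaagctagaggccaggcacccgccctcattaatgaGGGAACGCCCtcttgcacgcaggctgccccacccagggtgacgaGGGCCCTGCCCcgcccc
Cd59a: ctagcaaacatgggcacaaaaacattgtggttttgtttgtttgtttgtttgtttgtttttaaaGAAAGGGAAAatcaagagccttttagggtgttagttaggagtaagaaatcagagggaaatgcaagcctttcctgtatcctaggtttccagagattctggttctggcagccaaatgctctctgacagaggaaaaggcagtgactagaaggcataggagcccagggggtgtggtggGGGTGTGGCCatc
C3: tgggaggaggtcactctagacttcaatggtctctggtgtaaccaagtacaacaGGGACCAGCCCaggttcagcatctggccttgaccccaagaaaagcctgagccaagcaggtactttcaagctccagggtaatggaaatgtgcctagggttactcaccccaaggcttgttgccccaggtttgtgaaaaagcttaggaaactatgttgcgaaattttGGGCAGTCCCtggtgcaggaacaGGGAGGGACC
TGANTCA was found in the windows of 0 of the 5 matched members, against 6.75% of 32851 promoter windows of the same length. The related motif TGACGTCA (1.55% of windows) and the gamma-activated motif TTCNNNGAA (7.02%) were also found in 0 of the 5. The interferon-stimulated motif, present in 2.98% of windows, was found in 1 of the 5, at position -187 to -178 of Cd59a counted from the start site. The NF-kappaB motif, a loose one present in 45.8% of windows, was found in each of the 5, with 4 matches in C3, 4 in Cd55 and 1 each in Cd59a, Cd46 and Cfd. Some of the matches in C3 and Cd55 overlap each other. The motifs were chosen with the expression values known, and a match or its absence describes these letters only.

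Among the activating components, Cfb had the largest fold among the tested ones and C3 differed little, while C1qa, C4b and Cfd were near or at 0. Cfb encodes factor B, the protease part of the alternative route's C3-splitting enzyme. Its level was 8.85 and 13 CPM in Jun-Ctrl and 28.7 and 24.2 CPM under the Jun-cKO label, replicates 1 and 2. Both Jun-cKO-labelled libraries lay above both controls. The fold was 2.55 (log2 fold change 1.35, SE 0.18), and without Jun-Ctrl replicate 1, the lower of the controls, the log2 fold change was 1.02. In GENCODE M21 (GRCm38) the gene has 17 exon blocks and lies at 34856374 to 34862518 of chromosome 17, minus strand. GENCODE also annotates Gm20547, a same-strand model that spans Cfb and the neighbouring C2. Of the 79-base stretches of Cfb transcripts, 69.4% also occur in Gm20547, so how the counting treated that model bears on the level of Cfb.

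C3 encodes the central component that every activation route splits. It stood at 17.2 and 18.7 CPM in Jun-Ctrl and at 14.6 and 15.4 CPM under the Jun-cKO label. The groups did not overlap, but the difference was small, with a log2 fold change of -0.26 (SE 0.175). It shrank to -0.12 when each library was corrected for GC content. The ratio of Cfb to C3 CPM was 0.514 and 0.697 in Jun-Ctrl and 1.96 and 1.58 under the Jun-cKO label on the CPM scale, higher in both labelled libraries. C3 lies on the minus strand of chromosome 17 (57203970 to 57228136) with 42 exon blocks, and 0% of its 79-base stretches occur in another gene's transcripts.

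C1qa encodes a chain of C1q, which macrophages make. It had 6 and 2 counts in Jun-Ctrl (0.364 and 0.306 CPM) and 0 counts in both Jun-cKO-labelled libraries, at least 2.55-fold lower taking 3 counts over the group as the floor. The neighbouring C1qc, another chain, had 18 and 2 counts in Jun-Ctrl and 0 in both Jun-cKO-labelled libraries, so that 18 of its 20 counts came from Jun-Ctrl replicate 1. C1qb was still counted in every library, at 2.12 and 2.29 CPM in Jun-Ctrl and 1.77 and 0.886 CPM under the Jun-cKO label (log2 fold change -0.58, SE 0.41, adjusted p = 0.264 in the edgeR fit). The 3 chains assemble together, yet most of their summed 3.58, 2.91, 1.77 and 0.886 CPM came from C1qb. Macrophage markers differed in the same libraries, and their part in these values was not tested. Of 12 macrophage markers 11 were tested, 6 fell and 2 rose, beside 22.5% lower and 19.0% higher of all tested genes. The macrophage sums were 348 and 329 CPM against 353 and 361 CPM. Fcgr1 and Marco, among those that fell, passed the low-count filter only through the Jun-Ctrl libraries. Mrc1, which lymphatic endothelium also expresses, rose and made up 156 CPM of the Jun-Ctrl mean and 245 CPM of the Jun-cKO-labelled mean. In bulk RNA, fewer cells of a type and less RNA per cell cannot be told apart. C1qa lies on the minus strand of chromosome 4 (136895917 to 136898803) with 3 exon blocks.

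C4b encodes C4, the component cut by the C1 complex. It had 16 and 3 counts in Jun-Ctrl (0.97 and 0.459 CPM) and 6 and 5 counts under the Jun-cKO label (0.393 and 0.738 CPM). The groups overlapped and the gene was below the filter for testing. Its near copy C4a had 0.485 and 0.306 CPM in Jun-Ctrl and 1.11 and 0.886 CPM under the Jun-cKO label. Of C4b's 79-base stretches 21.2% are shared with C4a, so the split of reads between the copies is uncertain, and the summed level of both was 1.46, 0.765, 1.51 and 1.62 CPM in the 4 libraries. Cfd, which encodes factor D and is made mostly by adipocytes, had 0 counts in all 4 libraries, which allows up to 0.182 and 0.459 CPM in Jun-Ctrl and 0.197 and 0.443 CPM under the Jun-cKO label. C4b (34728380 to 34743882 of chromosome 17, minus strand) has 40 exon blocks, and Cfd (79890853 to 79892655 of chromosome 10, plus strand) has 5. The limits for Cfd, and the bounds given for C1qa and C6, cover counting error only, since amplified reads are not independent molecules.

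Serping1 was the soluble inhibitor among the members and its level was 2.42-fold higher under the Jun-cKO label. It encodes C1 inhibitor, a serpin that blocks the C1 proteases and also contact-system kallikrein. Its level was 44.4 and 50.9 CPM in Jun-Ctrl and 107 and 123 CPM under the Jun-cKO label. Both Jun-cKO-labelled values lay far above both controls (log2 fold change 1.28, SE 0.125). The log2 fold change ran from 1.16 to 1.37 over 13 alternative settings. The gene lies on the minus strand of chromosome 2 (84765387 to 84775444) with 8 exon blocks, and 0% of its stretches occur in another gene's transcripts. Its share of the members' summed CPM was 15.3% and 18.1% in Jun-Ctrl and 27.9% and 30.5% under the Jun-cKO label.

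**Figure D1:**
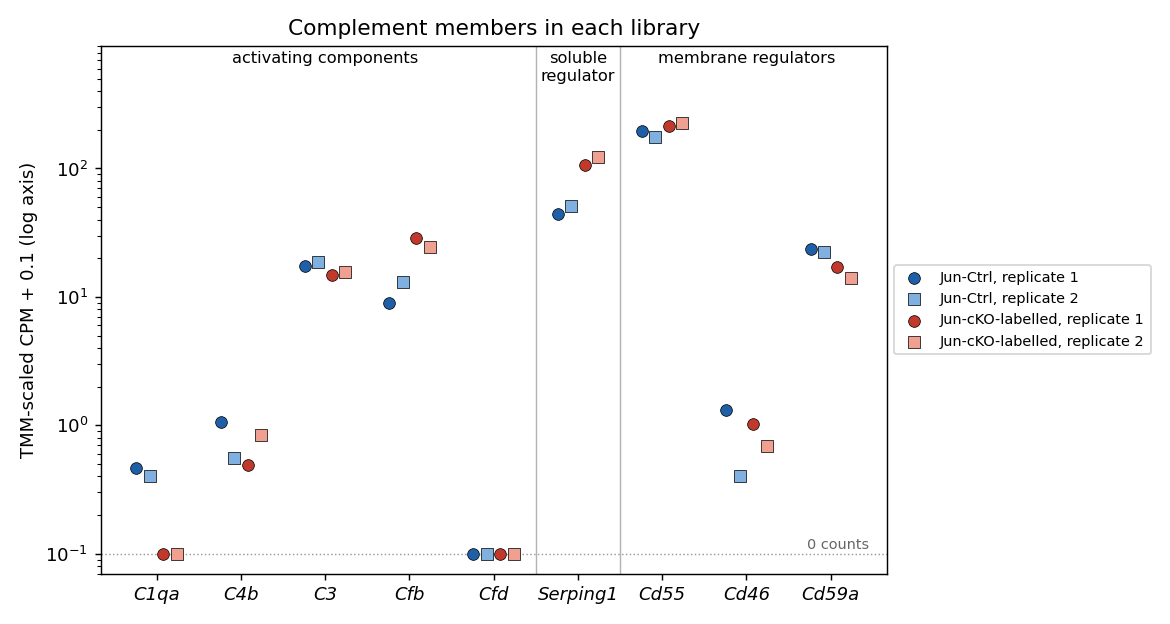
Level of each of the 9 members in each of the 4 libraries, as TMM-scaled CPM plus 0.1 on a log axis, with members ordered by role. Both Jun-cKO-labelled libraries lie above both Jun-Ctrl libraries for Cfb, Serping1 and Cd55 and below them for C3, Cd59a and C1qa. Such separation was seen for 71.3% of all tested genes. Cfd sits at 0 counts throughout.

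The membrane regulators did not move together. Cd55, decay-accelerating factor, which takes apart the C3-splitting enzymes, had the highest level of the members, also per length, at 194 and 176 CPM in Jun-Ctrl and 216 and 225 CPM under the Jun-cKO label. The groups were separate by a narrow margin, by 0.25 on the log2 scale (SE 0.115). That value was 0.16 without Jun-Ctrl replicate 2 and 0.09 after GC correction. Cd55 lies on the minus strand of chromosome 1 (130439027 to 130462744), has 10 exon blocks, and shares 5.8% of its stretches with its copy Cd55b and the antisense gene Gm16083. Cd55b had 1 count in all libraries together.

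Cd59a encodes CD59, which blocks pore assembly by the terminal components. It had 23.6 and 22.3 CPM in Jun-Ctrl and 17.0 and 13.9 CPM under the Jun-cKO label. Both Jun-cKO-labelled values lay below both controls, at a level 1.47-fold lower (log2 fold change -0.55, SE 0.17). The gene is on the plus strand of chromosome 2 (104095801 to 104115354) with 5 exon blocks. Its copy Cd59b, with which 1.44% of its stretches are shared, had 0.243 and 0.612 CPM in Jun-Ctrl and 0.59 and 0.443 CPM under the Jun-cKO label.

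Cd46, membrane cofactor protein, which in mice is found mainly in the testis, had 20 and 2 counts in Jun-Ctrl and 14 and 4 counts under the Jun-cKO label. That is 1.21 and 0.306 CPM against 0.917 and 0.591 CPM, the groups overlapped, and the sign of the log2 fold change (-0.19, SE 0.55) changed in limma-voom and leaving out Jun-cKO-labelled replicate 2. Cd46 lies on the minus strand of chromosome 1 (195036826 to 195092249), and 13% of its stretches match A330023F24Rik and the miRNA genes Mir29b-2 and Mir29c on the opposite strand. Crry, encoded by Cr1l, is the rodent protein with combined CD55-like and CD46-like activity. Cr1l was at 170 and 161 CPM in Jun-Ctrl and 155 and 176 CPM under the Jun-cKO label (log2 fold change -0.01, SE 0.12, adjusted p = 0.971 in the edgeR fit). The summed level of Cd55, Cr1l, Cd46 and Cd59a was 388 and 360 CPM in Jun-Ctrl and 389 and 415 CPM under the Jun-cKO label.

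Of the 9 members, 6 passed the filter on low counts, and C1qa, C4b and Cfd did not. The all-gene fit called 3 of these 6, Cfb and Serping1 higher and Cd59a lower, beside 41.5% of all tested genes, and nothing is read from that count because the members were chosen on this contrast. The call of Cd59a was lost in DESeq2, without Jun-Ctrl replicate 1 and when Jun-cKO-labelled replicate 2 was left out, which leaves 2 of the members called. Their median log2 fold change was 0.03, beside 0.01 over all tested genes.

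Per kilobase of the deposited gene length, the order of member levels in Jun-Ctrl was Cd55 (73.2 ± 5.06 CPM per kilobase, mean ± SD), Serping1 (26.2 ± 2.55), Cd59a (12.3 ± 0.475), Cfb (3.98 ± 1.07), C3 (3.49 ± 0.198), Cd46 (0.626 ± 0.529), C1qa (0.31 ± 0.0378), C4b (0.133 ± 0.067) and Cfd at 0. The ranges of mean ± SD overlapped for Cfb and C3, for Cd46 and C1qa, and for Cd46 and C4b. In the Jun-cKO-labelled libraries Cd55 (87.3 ± 2.51) and Serping1 (63.2 ± 5.91) were followed by Cfb (9.63 ± 1.16) and Cd59a (8.28 ± 1.2), whose ranges of mean ± SD overlapped, then by C3 (2.92 ± 0.102), Cd46 (0.622 ± 0.191) and C4b (0.105 ± 0.0452), with C1qa and Cfd at 0. Coverage along the transcripts was not assessed, and amplified libraries can cover transcripts unevenly.

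**Figure D2:**
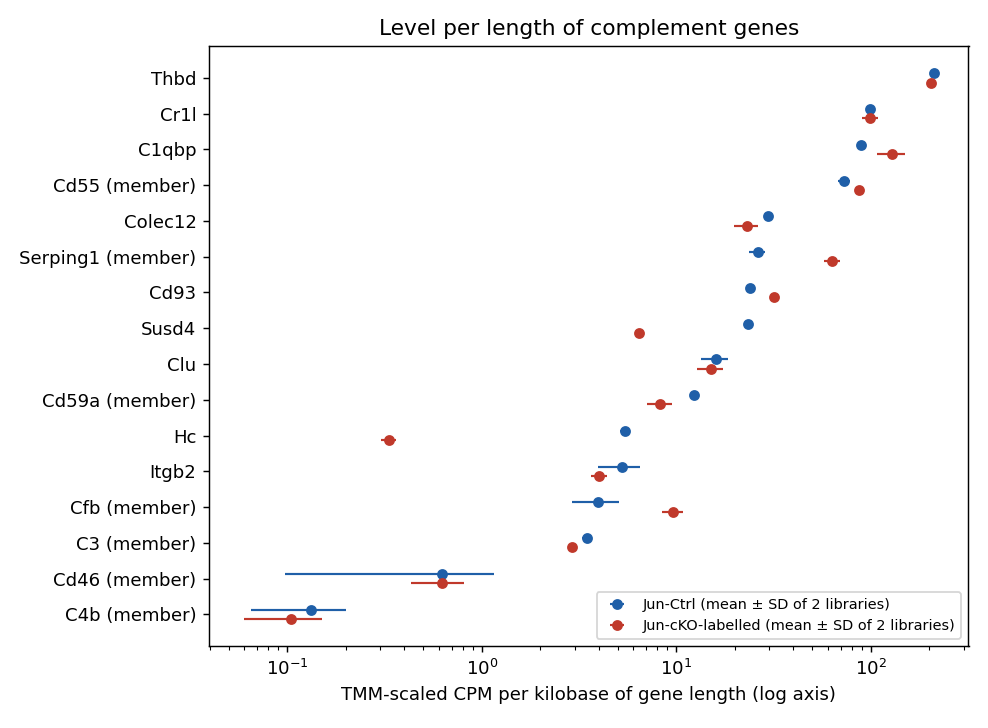
Mean ± SD of TMM-scaled CPM per kilobase (log axis) in the Jun-Ctrl and Jun-cKO-labelled groups, 2 libraries each, for members above 0 in both groups and other complement genes named in the text with a mean of at least 10 CPM. Serping1 and Cfb lie to the right in the Jun-cKO-labelled group, Hc and Susd4 to the left, and Thbd, Cr1l and Clu overlie.

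Beyond the members, 53 other complement genes were listed by role, of which 52 had a row in the table and 22 were tested. Of the 22, 5 rose (among them Cfi, C2, C1qbp and Cd93) and 5 fell (Hc, Susd4, C3ar1, Itgam and Colec12), which is 45.5% against 41.5% of all tested genes, and their median log2 fold change was -0.06 against 0.01. The share called was close to that background. Of the called genes, Cfi and C3ar1 passed the low-count filter only through the group where they were high. The other 12 tested genes were not called. The counts depended on single libraries. Calls of higher genes were 2 without Jun-Ctrl replicate 1 and 3 without replicate 2 of the same group. Those of lower genes were 2 without Jun-Ctrl replicate 1, 2 leaving out Jun-cKO-labelled replicate 1 and 8 leaving out Jun-cKO-labelled replicate 2.

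Among the other soluble regulators, Cfi encodes factor I, the protease that inactivates C3b. It rose from 0.243 and 0.306 CPM in Jun-Ctrl to 1.05 and 1.62 CPM under the Jun-cKO label. The log2 fold change was 2.21 (SE 0.65, adjusted p = 0.005 in edgeR). With 33 counts in all, Cfi passed the low-count filter only through the Jun-cKO-labelled libraries, where it is high. Its call is therefore no independent support for a difference. The Cfi call ended without Jun-Ctrl replicate 1 (adjusted p = 0.186) or 2 (0.0553) and in DESeq2 (0.117), within a range of 0.00524 to 0.186. Clu, clusterin, was at 25.7 and 32.1 CPM in Jun-Ctrl and 24.3 and 30.3 CPM under the Jun-cKO label, and the groups overlapped (log2 fold change -0.08, SE 0.16, adjusted p = 0.719 in edgeR). C4bp, Vtn and Cpn2 had 0 counts in every library.

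C2, the classical-route counterpart of factor B and its neighbour on chromosome 17, rose 2.01-fold, from 2 and 1.68 CPM to 4 and 3.54 CPM (adjusted p = 0.0145 in the edgeR fit). Its call ended in DESeq2 (0.175 as the adjusted p), without Jun-Ctrl replicate 1 (0.103) or 2 (0.1) and leaving out Jun-cKO-labelled replicate 1 (0.14), within a range of 0.0101 to 0.175. Like Cfb it shares stretches with Gm20547 (38.8% with that model and Zbtb12 together). C1ra and C1s1, which encode the C1 proteases that C1 inhibitor blocks, had log2 fold changes of -0.16 (SE 0.22) and -0.55 (SE 0.29) and were not called (adjusted p = 0.605 and 0.129 in edgeR), and C1rb had 0 counts. Part of their stretches is shared with relatives, 41.2% for C1ra and 23.4% for C1s1.

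The terminal component Hc, the mouse gene for C5, had the largest fall among the 22. It had 30.7 and 28.5 CPM in Jun-Ctrl and 1.70 and 1.92 CPM under the Jun-cKO label, 16.7-fold lower (log2 fold change -4.06, SE 0.23, adjusted p = 7.93e-20 in the edgeR fit, at most 2.42e-07 over 13 alternatives). Both Jun-cKO-labelled libraries lay far below both controls. Of 14 epithelial markers, all tested, 13 fell and 0 rose, beside 22.5% of all tested genes called lower. The epithelial sum was 1698 and 1793 CPM in Jun-Ctrl and 195 and 193 CPM under the Jun-cKO label. Some that fell, among them Epcam, Sftpb, Cldn18 and Aqp5, passed the low-count filter only through the Jun-Ctrl libraries, where they are high. Their calls are no independent support for a difference. The part of epithelial RNA in the level of Hc was not tested. C6 had 12 and 6 counts in Jun-Ctrl and 0 in both Jun-cKO-labelled libraries, at least 5.74-fold lower against 3 counts over the group. C8a and C8b had 0 counts throughout, and C7 and C9 had 1 count each in all. The pore-forming components other than Hc and C8g were thus scarcely counted, with C8g at 1.21, 1.22, 1.51 and 1.48 CPM.

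Among the other membrane regulators, Susd4, a membrane protein that restrains complement activation, fell 3.65-fold, from 48.5 and 47.0 CPM to 13.4 and 12.7 CPM (log2 fold change -1.87, SE 0.16, adjusted p = 7.62e-14 in the edgeR fit, at most 1.2e-05 over 13 alternatives). Thbd, thrombomodulin, an endothelial anticoagulant that also supports factor I, had the highest level on the whole list (210 and 203 CPM per kilobase in the groups), at 784 and 778 CPM in Jun-Ctrl and 776 and 737 CPM under the Jun-cKO label. The groups differed by a log2 value of -0.05 (SE 0.12, edgeR adjusted p = 0.791). Csmd1 and Csmd3 had 0 counts.

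Receptors went both ways. C1qbp, a mitochondrial and surface protein that binds C1q, rose 1.44-fold, from 105 and 102 CPM to 132 and 168 CPM (adjusted p = 0.00043 in the edgeR fit). Cd93, an endothelial surface lectin first described as a C1q receptor, rose 1.32-fold, from 156 and 161 CPM to 212 and 208 CPM (adjusted p = 0.0036 in edgeR, and 0.0831 without Jun-Ctrl replicate 1, within a range of 0.00212 to 0.0831). C3ar1, the receptor for C3a on myeloid cells, fell 3.01-fold, from 2.55 and 2.75 CPM to 0.852 and 0.886 CPM. Its adjusted p was 0.0027 in edgeR, but it passed the low-count filter only through the Jun-Ctrl libraries, where it is high. The call is therefore no independent support for a difference. That call ended in DESeq2 (0.0875), without Jun-Ctrl replicate 1 (0.0624) and leaving out Jun-cKO-labelled replicate 1 (0.0518), within a range of 0.00176 to 0.0875.

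Itgam, the alpha chain of complement receptor CR3 on myeloid cells, fell 2.01-fold, from 3.03 and 3.06 CPM to 1.44 and 1.62 CPM (adjusted p = 0.027 in the edgeR fit). Its call ended in DESeq2 (0.241), without Jun-Ctrl replicate 1 (0.174) or 2 (0.0969) and leaving out Jun-cKO-labelled replicate 1 (0.182), within a range of 0.0199 to 0.241. Of its stretches 65% are shared with Gm49368. Its partner chain Itgb2 was at 17.6 and 12.4 CPM in Jun-Ctrl and 12.3 and 10.8 CPM under the Jun-cKO label (log2 fold change -0.41, SE 0.19, adjusted p = 0.0817 in edgeR). The collectin Colec12, a scavenger receptor of endothelium, fell 1.28-fold, from 96.1 and 99.8 CPM to 69.3 and 84.4 CPM (adjusted p = 0.0157 in edgeR). This call ended in DESeq2 (0.0732), without Jun-Ctrl replicate 1 (0.0893) or 2 (0.0963) and leaving out Jun-cKO-labelled replicate 1 (0.236), within a range of 0.000488 to 0.236. Cr2, Mbl1 and Mbl2 had 0 counts.

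**Figure D3:**
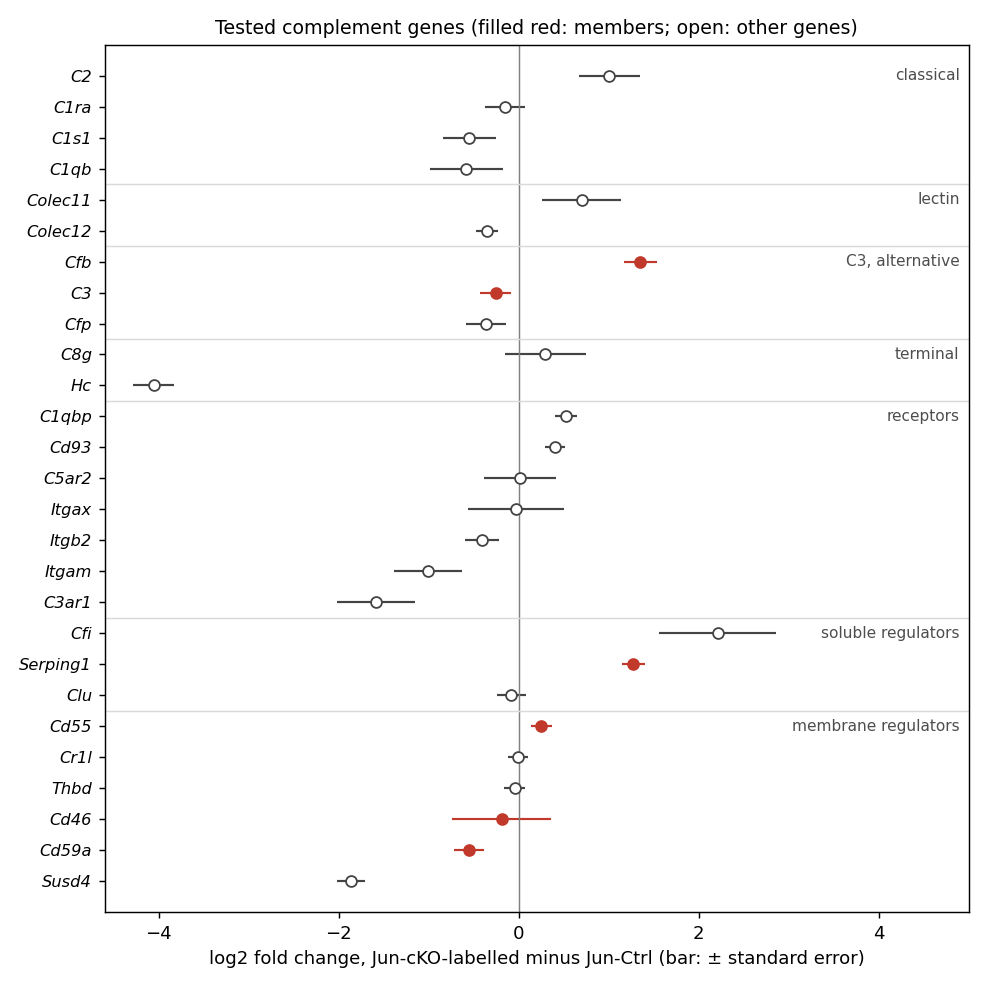
Log2 fold change, Jun-cKO-labelled minus Jun-Ctrl, with its standard error for tested complement genes (6 members, filled, and other genes, open), grouped by role. Cfb, Serping1 and Cfi stand to the right above 1, C2 at 1.01, Hc and Susd4 far to the left, and Cd55, Cr1l and Thbd near 0.

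Markers of further cell types also differed between the same libraries. Of 10 fibroblast markers 9 were tested, 6 fell and 0 rose, beside 22.5% of all tested genes called lower. The fibroblast sums were 298 and 300 CPM against 110 and 117 CPM. None of the epithelial, fibroblast or macrophage markers had 0 counts in every library.

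All 5 tested neutrophil markers of 9 listed fell, beside 22.5% of all tested genes called lower. The neutrophil sums were 454 and 422 CPM against 192 and 160 CPM, and Elane had 0 counts. Camp passed the low-count filter only through the Jun-Ctrl libraries, where it is high. Mpo, with 8 counts in all and not tested, was higher under the Jun-cKO label. The lymphatic markers, of which 11 of 12 were tested, summed to 15690 and 14760 CPM in Jun-Ctrl and 19800 and 20170 CPM under the Jun-cKO label. The 3 that rose, Lyve1, Mmrn1 and Reln, had the highest levels on that list, and 2 fell, Flt4 and Stab1. The median log2 fold change of the tested lymphatic markers was 0.04. Of 5 adipocyte markers, Plin1 and Lep had 0 counts, Adipoq had 7 counts in all, and the 1 tested, Fabp4, which endothelium also expresses, rose. Of 8 lymphocyte markers only Gzma was tested, with 0 CPM in Jun-Ctrl and 22.0 CPM on average under the Jun-cKO label, and Cd3e and Ms4a1 had 0 counts. C3ar1 and Itgam were lower in the same libraries as the tested neutrophil markers and 6 of the 11 tested macrophage markers. Mrc1 and Cd14 on the macrophage list rose instead, 3 tested ones were not called, and the macrophage sum was not lower. The part of these cell types in the levels of C3ar1 and Itgam was not tested. Serping1 was 2.42-fold and Cfb 2.55-fold higher in the Jun-cKO-labelled libraries. There the epithelial and fibroblast sums were lower and the lymphatic sum was higher, the last mainly through Lyve1, Mmrn1 and Reln. The part of cell mixture in the levels of Serping1 and Cfb was not tested.

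**Figure D4:**
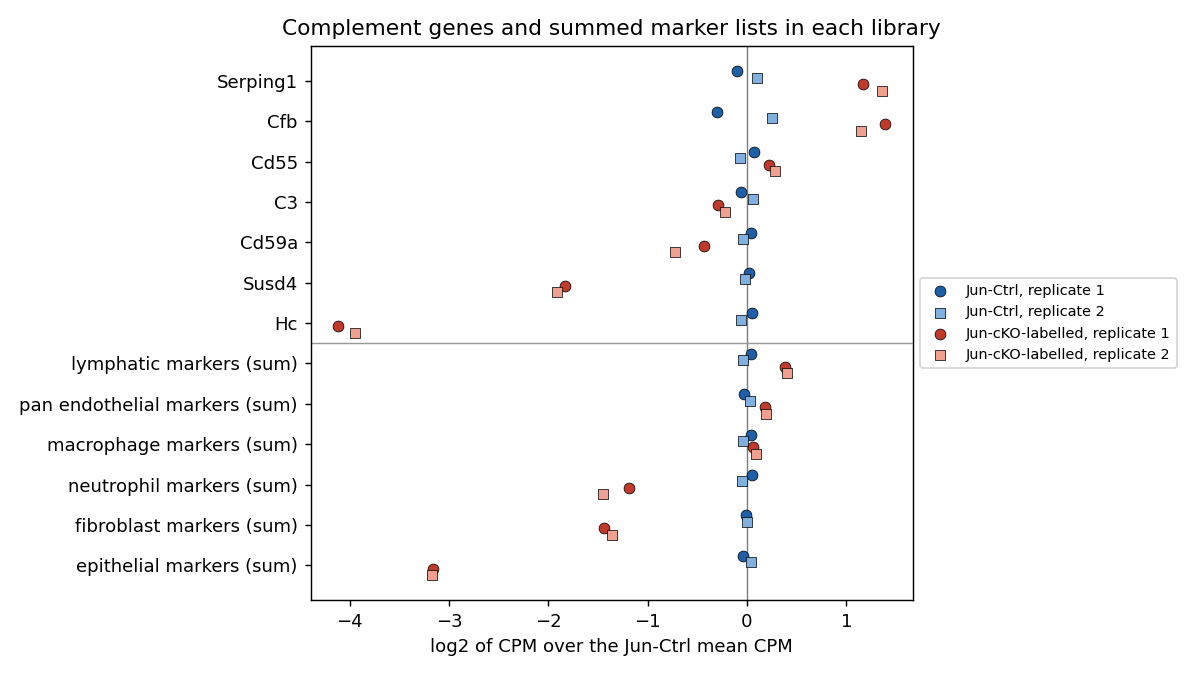
Log2 of the level in each library over the Jun-Ctrl mean, for 7 complement genes (above the line) and for the summed CPM of 6 marker lists (below it). In the Jun-cKO-labelled libraries Serping1 and Cfb lie between 1.15 and 1.39, Hc at -4.12 and -3.95, and the epithelial sum at -3.16 and -3.17.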

How the data were processed

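Per the labels' protocols, RNA came from sorted cells by PicoPure, was amplified by RiboAmp HS PLUS and went into NEBNext Ultra II DNA libraries, a preparation without strand information, read in 79 bases. The design text has cells of 3 replicates of a group mixed before amplification. The table the authors deposited holds raw read counts per gene and a gene length in bases, used here for levels per kilobase. STAR 2.7.2a, featureCounts 1.6.4, edgeR 3.28.1 and mm10 are named per the submitters' processing notes, without roles. For the counting, neither annotation nor strand setting is given in the sources used here.

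Counts were fitted across all genes with edgeR 4.0.16 in R 4.3.3 (glmQLFit, glmQLFTest) after TMM and filterByExpr, as Jun-cKO minus Jun-Ctrl with 4 libraries, no block, and Benjamini-Hochberg adjustment over 12656 genes, called under 0.05. Standard errors are the log2 fold change over the root of F. Alternatives were other scalings, DESeq2 1.42.0, limma-voom (limma 3.58.1), other filters, a replicate block, leaving out single libraries, and a loess correction for transcript GC content (span 0.5). The fit was tested on simulated counts. Gene coordinates and transcripts are from GENCODE M21, matched by name. Named genes are the members, every other complement gene called or with a mean of at least 10 CPM, those at 0 counts, and near copies or neighbours of members, except that some are not reported here. C6, C7, C8g, C9, C1ra and C1s1 were added after their values were seen. The members, lists and motifs were chosen with earlier results of these data known.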

Additional observations from a re-analysis of the deposited data

How the results depend on the processing

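The 5251 calls over all tested genes became 3389 in DESeq2 and 1670 with a minimum log2 fold change of 1, and ran from 2992 to 4794 with each library left out. Among the other complement genes, 5 higher calls became 3 in DESeq2 and 3 with a filter of 50 counts in 2 libraries, which left fewer genes to test, and ran from 2 to 5 with each library left out. The 5 lower calls became 8 without a filter and 3 with the filter of 50 counts, and ran from 2 to 8 with each library left out. Hc, Susd4 and C1qbp kept their direction and their call in all 13 alternatives run. Cfb, Serping1, C3, Cd55 and Cd59a kept their direction in all 13. These members were chosen on this contrast and every alternative reused the same libraries, so their kept direction adds no support. Without Jun-cKO replicate 1 the log2 fold change of Cd59a was -0.73, and without Jun-Ctrl replicate 1 that of C3 was -0.33. The replicate mark as a block gave 5426 calls, 5 higher and 5 lower among the other complement genes. The labels do not say that a mark stands for shared animals or days. Across 10175 genes the difference between replicates 1 and 2 correlated between groups at r = 0.0945. Libraries with the same mark also had similar total counts, and whether they share more was not tested. With no pairing shown, the block together with the GC correction was not run. Members under about 1 CPM (C1qa, C4b, Cfd and Cd46) are limited by depth.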
